A study of Mus musculus with 4 samples.

Results

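The miR-290-295 cluster is a group of 7 miRNA hairpins that lie side by side on mouse chromosome 7. It was measured here with 11 NanoString probes out of 566 probes for mouse miRNAs (599 probes in all, 33 of them for viral miRNAs). The members were chosen by name: every mouse probe for miR-290, miR-291a, miR-291b, miR-292, miR-293, miR-294 or miR-295, whatever its arm. The NanoString nCounter assay counts single mature miRNA molecules through a barcoded probe. The 4 samples were 2 replicates of wild-type (WT) R1 mouse embryonic stem cells (ESCs) and 2 replicates of triple-knockout (TKO) R1 cells, in which Dnmt1, Dnmt3a and Dnmt3b, the genes for the DNA methyltransferases (DNMTs), are all knocked out. All were grown on gelatin in serum medium with leukemia inhibitory factor, and the labels state for all of them that cells were differentiated for 4 days before RNA was isolated. The sources name no other TKO line and do not say how many clones it holds, so the loss of the DNMTs cannot be told apart from other differences between the lines. Nothing says that replicates came from separate cultures, so p-values measure only the spread between these samples.

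In mouse ESCs the cluster is transcribed as a single primary transcript, from which the nuclease Drosha cuts out each hairpin and Dicer then releases its 5p and 3p arms. An arm loaded into an Argonaute protein finds its targets mainly through its seed, the stretch near the 5′ end that pairs with the mRNA. Most 3p arms of the cluster carry the AAGUGC seed and are known as ESC cell cycle regulating miRNAs, which dampen inhibitors of the G1 to S transition. The cluster is a standard marker of pluripotent mouse cells and falls when they differentiate, whereas the let-7 family rises.

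The mature sequences of 10 of the 11 members could be matched in RefSeq (build GRCm38.p6), and they are shown because the seed sets the classes compared here. The probes named miR-293, miR-294 and miR-295 without an arm were read as the 3p arm after early miRNA naming, since the files do not state the arm. Bases 2 to 8, the seed, are in capitals. These arms carry AAGUGC at bases 2 to 7:
miR-291a-3p: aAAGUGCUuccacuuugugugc
miR-294: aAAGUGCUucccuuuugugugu
miR-295: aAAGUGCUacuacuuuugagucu
miR-290-3p: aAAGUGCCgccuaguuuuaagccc
miR-291b-3p: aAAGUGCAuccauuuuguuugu
These arms do not:
miR-293: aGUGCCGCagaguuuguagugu
miR-290-5p: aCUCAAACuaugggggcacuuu
miR-292-5p: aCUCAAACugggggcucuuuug
miR-291a-5p: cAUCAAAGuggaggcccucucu
miR-291b-5p: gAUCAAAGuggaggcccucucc
miR-292-3p, the member without a matched sequence, was not classed and is given on its own. Sums over the AAGUGC arms leave it out, whatever its seed.

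Among the 5 AAGUGC arms, miR-291a-3p, miR-294 and miR-295 shared all of bases 2 to 8, and miR-290-3p and miR-291b-3p each differed from them at base 8. The letters AGUGC begin at base 3 in these arms but at base 1 in miR-293, so the seed of miR-293 is shifted. miR-293 and miR-290-3p had a run of 8 bases in common. The 5p arms fell into pairs by seed, miR-290-5p with miR-292-5p and miR-291a-5p with miR-291b-5p. Counting from the 5′ end, with the first-named arm's base first, miR-291a-3p differed from miR-294 by A12C, C13U and C22U, and miR-291b-3p differed from miR-294 by A8U, A12C and U19G. miR-291a-5p and miR-291b-5p differed only at their ends (C1G and U22C) and shared 20 bases in a row.

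The 7 hairpins spanned 2216 bp at chr7:3218626-3220841 on the plus strand, in the order miR-290, miR-291a, miR-292, miR-291b, miR-293, miR-294 and miR-295. Gaps between neighbours were 188 to 218 bp, apart from 782 bp between miR-291b and miR-293 and 48 bp between miR-294 and miR-295. Both arms had a probe for the first 4 hairpins and only the 3p arm for the last 3, so that 11 of the 14 arms were measured. Signal did not follow the order along the cluster. In WT cells the outermost hairpin miR-290 and the middle hairpin miR-291b were within the range of the viral probes (7.77 to 103 normalized counts), while each arm of the hairpins between and after them gave at least 6056 counts in both WT replicates.

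**Figure D1:**
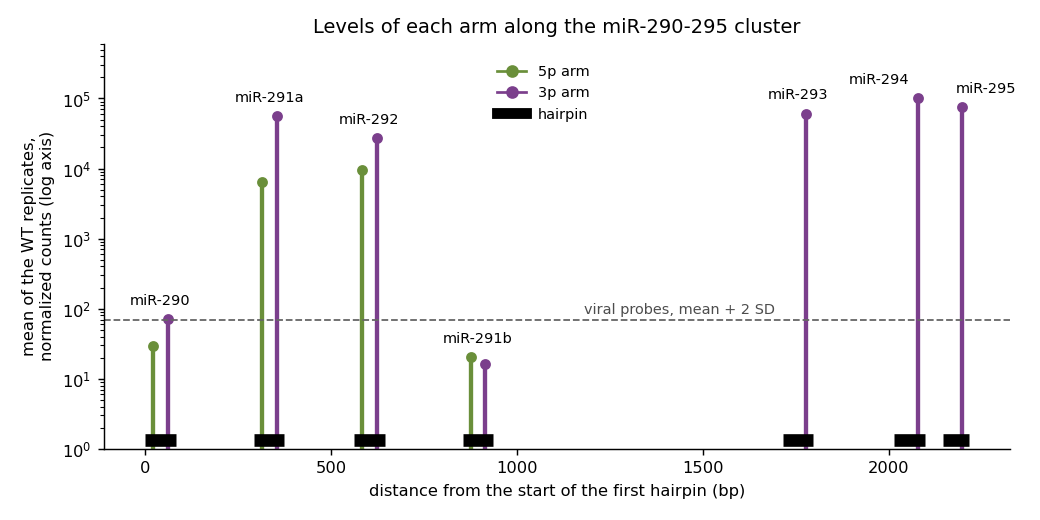
Mean level of each probed arm in the 2 WT replicates (normalized counts, log axis) against the position of its hairpin in bp from the start of the first one; black bars are hairpins, green and purple stems are 5p and 3p arms, and the dashed line is the background limit (69.2). The arms of miR-291b lay below the line although the miR-292 hairpin, 211 bp before it, had a mean of 27405 for its 3p arm.

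Counts recovered from the deposited values summed to between 511661 and 613666 per sample, and replicates differed by more than counting noise in both genotypes (chi-square per degree of freedom 5.14 in WT and 16.4 in TKO). Muscle and liver miRNAs (4 and 1 probes) had no probe above background. Summed fibroblast markers (6 probes, 4 above background) were at 957 to 975 normalized counts in WT and 1333 to 1348 in TKO cells. Blood markers (4 probes, 2 above background) were at 890 to 950 and 1283 to 1428, and neural markers (4 probes, 2 above background) at 621 to 720 and 300.2 to 302.4. Each of these differences was carried by 1 probe, named after its values were seen. Without miR-21 (means 463 in WT and 918 in TKO) the fibroblast markers summed to 525 and 481 in WT and, lower, to 423 and 422 in TKO cells. Without miR-142-3p (784 and 1219) the blood markers came to 143 and 128 against 124 and 150, and without miR-124 (479 and 133) the neural markers came to 220 and 163 against 170 and 166, so that the genotypes overlapped in both. Each whole list was at most 0.264% of the mouse signal. Their part in the results was not tested. The miR-290-295 cluster, itself a marker of ESCs, gave 51.2% to 57.4% of the mouse signal, and let-7 with miR-98 gave 0.234% to 0.335%. In the latter list let-7a read only 0.97 to 1.07 normalized counts, below every viral probe. In whole-culture RNA, fewer cells of a type and less RNA per cell cannot be told apart.

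The 11 probes covered almost 4 orders of magnitude and split into 7 abundant and 4 low ones. Levels are normalized counts, and a probe was called above background when its mean over the 4 samples was over 69.2, which lies 2 SD above the average of the 33 probes for viral miRNAs. Of the mouse probes, 238 (42.0%) did so. The 7 abundant probes (miR-291a-3p, miR-291a-5p, miR-292-3p, miR-292-5p, miR-293, miR-294 and miR-295) gave over 99.9% of the cluster signal in every sample. In WT replicate 1 they ranked between 1 and 14 among the 566 mouse probes. Probes differ in how well they capture their target, so ranks between probes are those of signal and not of molecules.

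**Figure D2:**
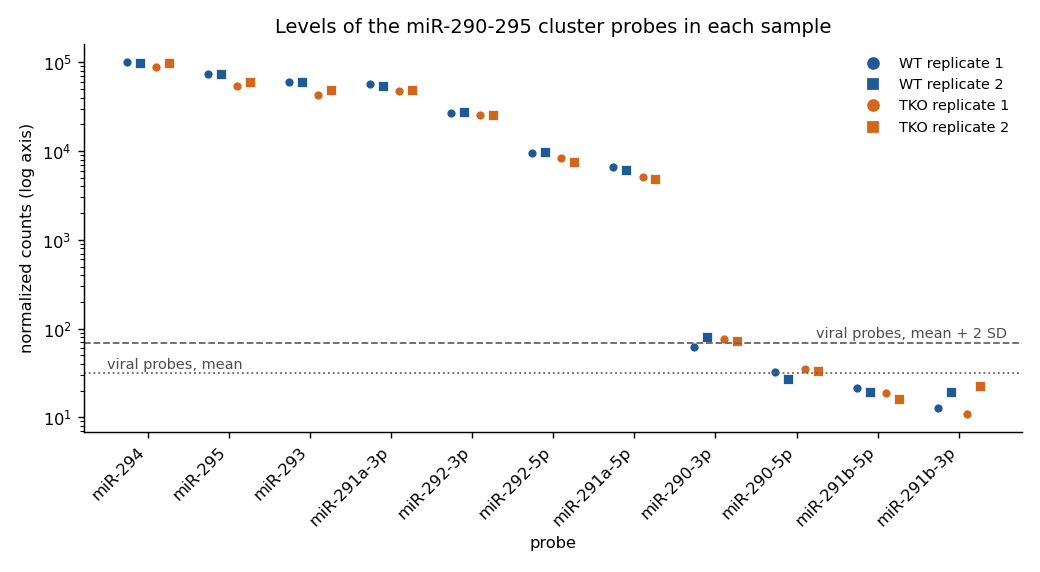
Normalized counts (log axis) of the 11 cluster probes in each of the 4 samples, ordered by WT mean, with circles for replicate 1 and squares for replicate 2; the dotted and dashed lines mark the average of the viral probes (31.5) and the background limit (69.2). A gap of almost 2 orders of magnitude separates miR-291a-5p from miR-290-3p, and the 3 probes to its right lie under the upper line in all samples.

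miR-294 (mmu-miR-294 in the files), the most abundant member and an AAGUGC arm, read 102133 and 99266 normalized counts in the WT replicates, against 87839 and 99265 in the TKO replicates. The second TKO replicate all but equalled the second WT replicate. The log2 difference, TKO minus WT, was -0.11 (SE 0.15, limma, adjusted p = 0.733), and it was -0.021 without TKO replicate 1 and -0.20 without TKO replicate 2.

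miR-295 (mmu-miR-295), also an AAGUGC arm, read 74320 and 74557 in the WT replicates, against 54731 and 60731 in the TKO replicates. The TKO samples both lay below the WT samples, and the difference between the means, -16707 counts, was larger than the spread within either genotype (SD 168 and 4243, n = 2 each). On the log2 scale the difference was -0.37 (SE 0.15, 95% interval -0.77 to 0.034, limma, adjusted p = 0.232).

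miR-293 (mmu-miR-293), the 3p arm with the shifted seed, read 60643 and 60387 in the WT replicates, against 42987 and 48531 in the TKO replicates. This was the largest log2 difference of the 11, with a TKO mean of 0.756 times the WT mean and no overlap between genotypes. Its log2 difference of -0.41 (SE 0.15, 95% interval -0.82 to 0.0050) did not pass the threshold (limma, adjusted p = 0.212).

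miR-291a-3p, the remaining abundant arm among those classed as AAGUGC, read 57593 and 54289 in the WT replicates, against 47102 and 48772 in the TKO replicates. Its partner miR-291a-5p read 6638 and 6056 in the WT replicates, against 5046 and 4791 in the TKO replicates. The genotypes did not overlap for either arm, and the log2 difference was -0.22 (SE 0.15, limma, adjusted p = 0.434) for the 3p and -0.37 (SE 0.15, adjusted p = 0.234) for the 5p arm.

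miR-292-3p read 27054 and 27756 in the WT replicates, against 25387 and 25241 in the TKO replicates. miR-292-5p read 9611 and 9661 in the WT replicates, against 8264 and 7564 in the TKO replicates. The genotypes did not overlap for either arm, with log2 differences of -0.11 (SE 0.14, limma, adjusted p = 0.691) and -0.29 (SE 0.15, adjusted p = 0.328).

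The low probes gave no resolvable difference. miR-290-3p read 62.1 and 80.6 in the WT replicates, against 77.1 and 72.9 in the TKO replicates. Its mean of 73.2 was just above the background limit, which it passed in 3 of the 4 samples, and the genotypes overlapped. miR-290-5p read 32.1 and 27.2 in the WT replicates, against 34.6 and 33.2 in the TKO replicates, about the mean of the viral probes (31.5). miR-291b-5p read 21.4 and 19.4 in the WT replicates, against 18.8 and 16.1 in the TKO replicates, and miR-291b-3p read 12.8 and 19.4 in the WT replicates, against 10.9 and 22.5 in the TKO replicates. These 3 probes were under the background limit in every sample, so no level beyond background was detectable, and a TKO level above or below a WT level among them is not read as a difference. For miR-291b-3p the 12 counts behind the first WT replicate allowed 6.64 to 22.4 normalized counts (exact Poisson 95% interval, which covers counting error only).

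The pair miR-291a-5p and miR-291b-5p were the members most alike in sequence and lay far apart in signal. The 2 mature sequences printed above share 20 of 22 bases, yet miR-291b-5p was under the background limit in all 4 samples. Set against that limit, the signal of miR-291a-5p was at least 95.9-fold and 87.5-fold higher in the WT replicates and at least 72.9-fold and 69.2-fold higher in the TKO replicates. These are lower bounds on a ratio of signals and not of molecules. miR-291b-3p was likewise at background, although it differs from the abundant miR-294 at 3 of 22 bases.

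In the order of the WT levels, miR-294 was followed by miR-295, miR-293, miR-291a-3p, miR-292-3p, miR-292-5p, miR-291a-5p, miR-290-3p, miR-290-5p, miR-291b-5p and miR-291b-3p. Only miR-291b-5p and miR-291b-3p overlapped between replicates. In TKO cells miR-291a-3p and miR-293 changed places, and their replicates overlapped there.

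None of the 11 probes was called at an adjusted p of 0.05 by limma on log2 of the normalized count plus 1, fitted over all 566 mouse probes, of which 48 (8.48%) were called. None of the 11 was below 0.05 before adjustment either, while 133 of the 566 mouse probes (23.5%) were. The count depended on how limma estimated the spread. With a variance trend over the level, miR-291a-5p, miR-293 and miR-295 were called lower in TKO cells (adjusted p = 0.032, 0.028 and 0.032), at a background of 9.54% of probes called lower. With voom on the recovered counts the same 3 probes were called lower (adjusted p = 0.029, 0.013 and 0.015), at a background of 9.72%.

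By counts, 9 of the 11 probes had a negative log2 difference, against 61.7% of all mouse probes, and in 8 both TKO samples were below both WT samples, against 36.0% of all mouse probes. One of the 8 is miR-294, which does so by less than 1 count, and another is miR-291b-5p, which was at background. Among the 238 mouse probes above background, 171 had a negative difference, and in 52.1% both TKO samples were below both WT samples. Of the 8 cluster probes above background, 7 had a negative difference, and in 7 both TKO samples were below both WT samples. The median log2 difference of the 11 cluster probes was -0.22, beside -0.12 over all mouse probes. Restricted to probes above background, the median was -0.25 in the cluster and -0.20 over all mouse probes. The 11 probes come from 1 transcript and are not independent of each other.

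The sign of these small differences rested on the scaling. The authors' scaling left the median of all mouse probes at -0.12. Scaling each sample to the sum of its mouse probes moved that median to 0.0089 and the cluster median to -0.088, and leaving miR-720 out of the sum moved them to 0.16 and 0.067. Over all probes, the 48 calls were 24 lower and 24 higher under the authors' scaling, 17 and 27 under sum scaling, 14 and 25 when scaled to the top 100 probes, and 9 and 29 without miR-720. Relative to the median of all probes, the cluster median lay lower by about the same amount each time. miR-293, miR-295 and miR-291a-5p had a negative difference under each of the 6 scalings tried. A scaling shifts all log2 differences by about the same amount, and these were the lowest in the cluster (-0.41, -0.37 and -0.37). They are thus the last to change sign, so keeping it does not test whether they are lower. Scaling to the cluster sum, among the 6, makes arms that fell more than that sum negative by construction. The mouse sum is itself 51.2% to 57.4% cluster signal. miR-294 and miR-292-3p turned positive under sum scaling (0.026 and 0.020).

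**Figure D3:**
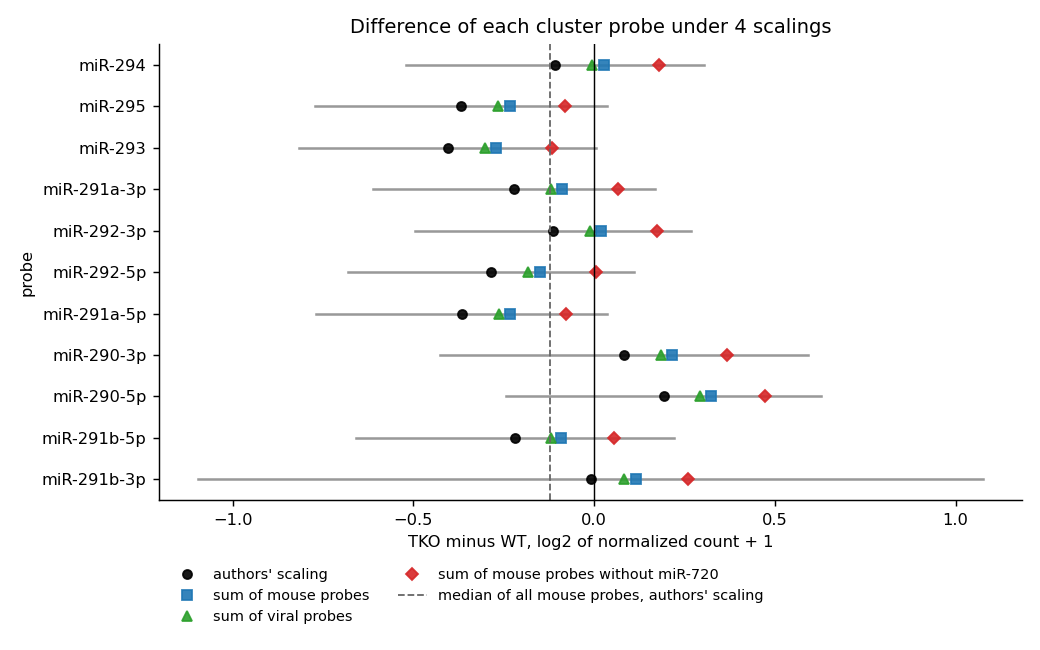
Log2 difference, TKO minus WT, of each cluster probe under 4 scalings, with the limma 95% interval of the authors' scaling as a grey line and the median of all mouse probes (-0.12) as a dashed line; probes are ordered by WT level. Every interval includes 0, and the scalings shift all probes together. miR-295, miR-293 and miR-291a-5p, the lowest under the authors' scaling, stay left of 0 under all 4.

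As a share of the signal, the cluster dominated both genotypes. The 11 probes summed to 338120 and 332117 normalized counts in WT and 271498 and 295039 in TKO cells. That was 57.4% and 55.8% of the signal of all mouse probes in WT and 53.8% and 51.2% in TKO cells, a difference of -4.12 percentage points at a pooled SD of 1.52. With 2 samples against 2, an exact permutation test cannot give a two-sided p below 0.333, which holds for every share and ratio given here. The lower share went with the probe for miR-720, a fragment of a tRNA that was long listed as a miRNA. miR-720 read 57232 and 67909 in the WT replicates, against 83731 and 130237 in the TKO replicates, or 9.72% and 11.4% against 16.6% and 22.6% of the mouse signal. Its log2 difference was 0.74 (SE 0.27, limma, adjusted p = 0.204), and it was 0.43 without TKO replicate 2 and 1.06 without TKO replicate 1. With miR-720 left out of the total, the cluster held 63.6% and 63.0% in the WT replicates against 64.5% and 66.2% in the TKO replicates, so that the difference turned to 2.03 percentage points. Apart from the cluster and miR-720, the most abundant mouse probes were miR-1944 and the probe shared by miR-20a and miR-20b.

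**Figure D4:**
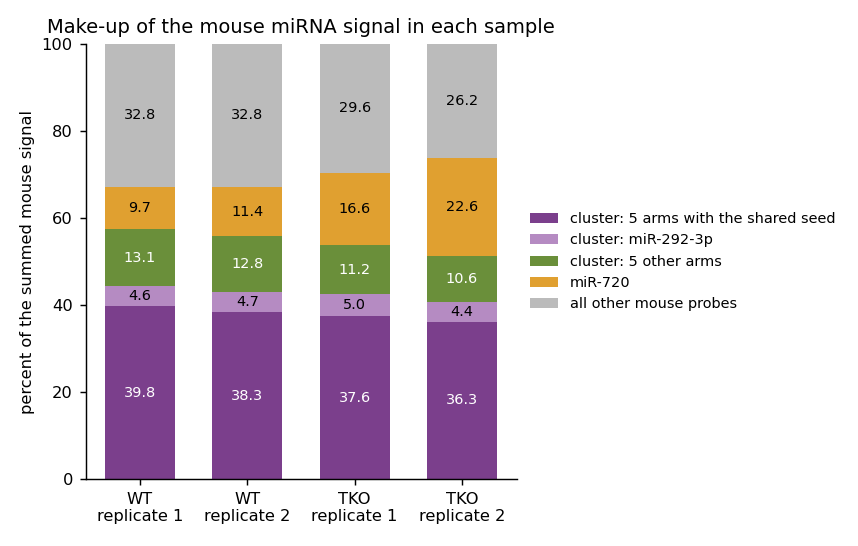
Percent of the summed signal of all 566 mouse probes in each sample, split into the 5 cluster arms with the shared seed, miR-292-3p, the 5 other cluster arms, miR-720 and all remaining mouse probes. The cluster takes 57.4% in WT replicate 1 and 51.2% in TKO replicate 2, and miR-720 9.72% and 22.6%.

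Within the cluster, the shares of some abundant arms did not overlap between the WT and TKO samples, and those of others did. No scaling of the samples can change these shares, since each is taken inside 1 sample. A lack of overlap is common with 2 samples against 2 and is not by itself read as a change. By level, 36.0% of all mouse probes had both TKO samples below both WT samples, and 17.3% had them above. miR-294 held 30.2% and 29.9% of the cluster signal in the WT replicates, against 32.4% and 33.6% in the TKO replicates, without overlap. miR-293 went from 17.9% and 18.2% to 15.8% and 16.4%, and miR-295 from 22.0% and 22.4% to 20.2% and 20.6%. These 3 shares differed by 2.95, -1.92 and -1.84 percentage points at pooled SDs of 0.665, 0.332 and 0.316. Set against miR-294 directly, miR-293 had log2 ratios of -0.75 and -0.72 in the WT replicates against -1.03 and -1.03 in the TKO replicates. miR-295 had log2 ratios to miR-294 of -0.46 and -0.41 in the WT replicates against -0.68 and -0.71 in the TKO replicates. miR-291a-3p, with means of 16.7% ± 0.486 and 16.9% ± 0.579 (SD, n = 2), miR-291a-5p and miR-292-5p overlapped between genotypes. miR-292-3p had means of 8.18% ± 0.252 in WT and 8.95% ± 0.563 in TKO cells (SD, n = 2), without overlap.

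**Figure D5:**
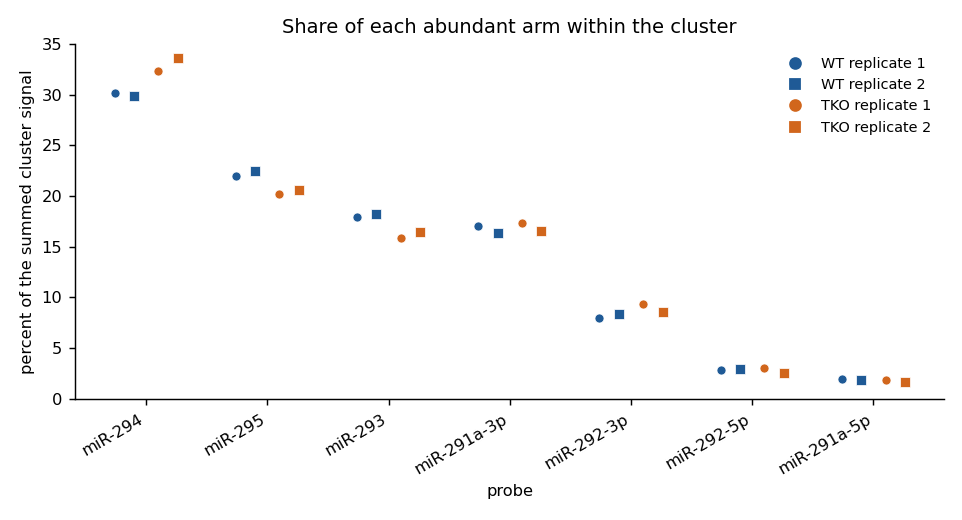
Percent of the summed cluster signal taken by each of the 7 abundant probes in each sample, with circles for replicate 1 and squares for replicate 2. The TKO samples lie above the WT samples for miR-294 (32.4% and 33.6% against 30.2% and 29.9%) and below them for miR-295 and miR-293.

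By seed class, the 5 AAGUGC arms gave most of the cluster signal. They held 69.2% and 68.7% of it in WT and 69.9% and 70.8% in TKO cells, a difference of 1.36 percentage points (pooled SD 0.521). The 5 other arms held 22.8% and 22.9% in the WT replicates against 20.8% and 20.7% in the TKO replicates, a difference of -2.14 percentage points (pooled SD 0.0999). Neither class overlapped between genotypes. miR-292-3p, which was not classed, is in neither and held means of 8.18% in WT and 8.95% in TKO cells. Most of the second class is miR-293, so its lower share is largely that of 1 probe. Within the AAGUGC class, miR-294 had a higher and miR-295 a lower share in TKO cells, and both carry the same 7 seed bases. These shares are relative to the cluster sum. In counts both arms had a negative log2 difference (-0.11 and -0.37), and neither was called in the main limma fit. As sums, the AAGUGC arms took 39.8% and 38.3% of all mouse signal in WT and 37.6% and 36.3% in TKO cells.

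Both arms of a hairpin are cut from the same precursor, so their ratio was compared where both were measured. The 3p signal of miR-291a exceeded its 5p arm by log2 ratios of 3.12 and 3.16 in the WT replicates against 3.22 and 3.35 in the TKO replicates. For miR-292 the log2 ratios were 1.49 and 1.52 in the WT replicates against 1.62 and 1.74 in the TKO replicates. In both hairpins the ratio was higher in each TKO sample than in each WT sample, by 0.14 (pooled SD 0.067) and 0.17 (pooled SD 0.061). A constant difference in probe efficiency cancels in these comparisons. The ratio was not taken for hairpins outside the cluster, so no background can be set beside this lack of overlap. For miR-290 and miR-291b, with arms at or under background, the ratios overlapped and were not resolved.

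Other miRNAs share the AAGUGC letters. Of 555 mouse probes outside the cluster, 435 had a RefSeq sequence, and for 3 of these an arm of that name carried AAGUGC at bases 2 to 7. These were miR-302b and miR-302d with their 3p arms and miR-350 with its 5p arm. The probe name gives no arm for any of them. Read as miR-293, miR-294 and miR-295 were, each would be the 3p arm, while the miR-350 arm found with AAGUGC is the 5p arm. The miR-350 signal is thus not shown to be that of an AAGUGC arm, and it stays in the list by name only. miR-302b and miR-302d belong to the miR-302 cluster, which has the same seed and is known for primed pluripotent cells. Their 3p arms are shown to set beside miR-294, with the seed in capitals as before:
miR-302b-3p: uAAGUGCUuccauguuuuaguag
miR-302d-3p: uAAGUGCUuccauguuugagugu
They lie on chromosome 3 and share bases 2 to 8 with miR-294, miR-295 and miR-291a-3p. miR-302d read 148 and 137 in the WT replicates, against 618 and 745 in the TKO replicates, and it rose by 2.25 on the log2 scale (SE 0.17, limma, adjusted p = 0.0054). miR-302b was below background, at 19.3 and 27.2 in the WT replicates against 35.6 and 37.5 in the TKO replicates. No 3p sequence was available for miR-302a and miR-302c, so the search by sequence could not find them. miR-302a read 47.1 and 53.4 in the WT replicates, against 503 and 625 in the TKO replicates (log2 difference 3.46, SE 0.19, limma, adjusted p = 0.0042). miR-302c was below background and was called higher too (1.58, adjusted p = 0.015), beside 4.24% of all mouse probes called higher. Against the AAGUGC arms of the miR-290-295 cluster these amounts were minor, since miR-302a, miR-302b, miR-302c and miR-302d together came to 0.0942% and 0.0987% of the signal of those arms in WT and 0.621% and 0.686% in TKO cells. miR-350 read 295.4 and 273.9 in the WT replicates, against 170 and 172 in the TKO replicates and was not called (log2 difference -0.73, SE 0.15, limma, adjusted p = 0.061).

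The miR-17 family, a group of growth-promoting miRNAs, carries AAGUGC 1 base further on, at bases 3 to 8. Of the 5 probes found with these letters, 4 were called lower in TKO cells, beside 4.24% of all mouse probes. The probe shared by miR-20a and miR-20b read 17647 and 18573 in the WT replicates, against 8548 and 8814 in the TKO replicates, a log2 difference of -1.06 (SE 0.15, limma, adjusted p = 0.022). The probe for miR-106a and miR-17 (-1.31), miR-106b (-1.44) and miR-93 (-1.06) were called as well, and miR-105, with the same letters but below background, was not. The 4 called probes are not independent of each other, and miR-106b and miR-93, for example, belong to 1 cluster. Of the 17 probes with AAGUGC letters or of the let-7 group, 5 were called with all 4 samples, 1 without WT replicate 1 and none without any other sample, where a genotype left with 1 sample is assumed to vary like the other. The differences themselves moved little with a sample left out, from -1.10 to -1.02 for miR-20a and miR-20b, -1.38 to -1.25 for miR-106a and miR-17, -1.45 to -1.43 for miR-106b, -1.09 to -1.03 for miR-93 and 2.11 to 2.38 for miR-302d. Among the abundant cluster arms the lower bound of the interval reached -0.82 at most, in miR-293. For let-7 and miR-98, which rise on differentiation, 7 of 9 probes were above background and none of the 9 was called (1 had an unadjusted p under 0.05), with a median log2 difference of -0.15. Over all mouse probes 8.48% were called, 23.5% had an unadjusted p under 0.05 and the median was -0.12, so these counts were near the background. Their sum was 1634 and 1680 in the WT replicates against 1693 and 1345 in the TKO replicates, at most 0.335% of the mouse signal. The let-7a probe, at 1.07 and 0.97 in WT against 0.99 and 1.07 in TKO, was below the lowest viral value (7.77). The sum thus holds almost no let-7a signal.

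The probe whose profile over the 4 samples was nearest to the summed cluster was miR-1944. Likeness was the Euclidean distance between centred log2 values, compared over 230 probes above background outside the cluster. miR-1944 read 17252 and 17073 in the WT replicates, against 13596 and 15227 in the TKO replicates, at a distance of 0.033 where the median probe was at 0.415. miR-129-3p (0.054), miR-494 (0.069), miR-539 (0.069) and miR-423-3p (0.074) followed. None of the 5 was called. With 4 samples and 1 common scaling, this likeness is a description of the profiles only.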

How the data were processed

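Total RNA of WT and TKO R1 ESCs (2 replicates each) was profiled with the nCounter miRNA assay. The authors normalized the counts with the NanoString nSolver software and deposited log2 values. The version, background handling and scaling probes are not given in the sources used here. The log2 values were turned back to normalized counts, which were whole multiples of 1 step per sample (100.0% of values within 0.05 of a whole count), and gave the recovered counts. Log2 of the normalized count plus a pseudocount of 1 was tested for the 566 mouse probes with limma 3.58.1 (lmFit and eBayes, two-sided, Benjamini-Hochberg, threshold 0.05). Shares and ratios were taken within each sample. Confidence intervals are at 95%.

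The members and lists were chosen with earlier results of these data known. Named are all cluster probes, the 3 most abundant others, called probes of the related lists and the 5 nearest profiles. The uncalled probes named were added after values had been seen. Scaling without miR-720, scaling by the cluster sum and counting miR-292-3p with the AAGUGC arms were alternatives chosen after seeing the data. Other alternatives covered the pseudocount, scaling, background, filter, variance model and each sample left out. The fits were tested on simulated data. R 4.3.3 and, in Python 3.11.15, matplotlib 3.10.9, scipy 1.17.1, pandas 2.3.3 and numpy 2.4.6 were used. RefSeq tables (GRCm38.p6) gave sequences and positions.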

Additional observations from a re-analysis of the deposited data

How the results depend on the processing

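The number of mouse probes called was 48, and became 74 with probes above background only, 84 with the variance trend, 85 with voom, 30 with the replicate block and 0 to 14 with a sample left out (14 without WT replicate 1, 9 without WT replicate 2, and 0 in limma without TKO replicate 1 or 2, where 114 and 101 had an unadjusted p under 0.05). The smaller counts without a sample come with a genotype left at 1 sample, which is then assumed to vary like the other genotype. No cluster probe was called in any fit other than the trend and voom, which each called 3. Of the 17 probes of related miRNAs, 5 were called, 3 when scaled without miR-720, to the cluster sum or with the replicate block, and 0 to 1 with a sample left out. The replicate block left the differences as they were, and same-numbered samples share only a number (their deviations correlated at r = -0.094 over probes). It changed no call of a cluster probe.

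The cluster median of -0.22 became -0.15 with a pseudocount of 10, -0.088 with sum scaling, -0.054 with top 100 scaling, -0.12 with viral probe scaling and -0.11 with the background subtracted. It reversed to 0.067 without miR-720 and to 0.021 with the cluster sum. The cluster share of the signal reversed from -4.12 to 2.03 percentage points once miR-720 was out of the total, and the AAGUGC share went from 1.36 to 2.14 percentage points with miR-292-3p counted in. The arm ratio of miR-290 (-0.11) spanned -0.41 to 0.19 and that of miR-291b (0.21) -0.39 to 0.81 with a sample left out, and the former was -0.66 with the background subtracted. The arm ratios of miR-291a and miR-292 kept their sign throughout, at 0.082 to 0.21 and 0.11 to 0.23 with a sample left out. Scaled without miR-720, the log2 difference reversed for miR-291a-3p (0.067), miR-291b-3p (0.26), miR-291b-5p (0.056), miR-292-3p (0.17), miR-292-5p (0.0037), miR-294 (0.18), miR-1944 (0.035), miR-129-3p (0.081), miR-494 (0.099) and miR-539 (0.082). Scaled to the cluster sum, it reversed for miR-291a-3p (0.021), miR-291b-3p (0.22), miR-291b-5p (0.013), miR-292-3p (0.13), miR-294 (0.13), miR-129-3p (0.036), miR-494 (0.055) and miR-539 (0.037). Sum and top 100 scaling reversed miR-291b-3p (0.12 and 0.15), miR-292-3p (0.020 and 0.054) and miR-294 (0.026 and 0.059), and miR-291b-3p also reversed with a pseudocount of 10 (0.0067) and viral probe scaling (0.083). With a sample left out, miR-290-3p spanned -0.10 to 0.27 and miR-291b-3p -0.50 to 0.48, and the cluster shares of miR-291a-3p and miR-292-5p spanned -0.16 to 0.66 and -0.31 to 0.17 percentage points. These shifts follow from the scaling factors or from fewer samples, and the background-subtracted ratio from counts near the viral mean. The 3 probes under the background limit allow no statement on their levels.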
